A study of Mus musculus with 18 samples.

Results

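The glycolysis and hypoxia response genes described here are 39 mouse genes taken by symbol from the deposited expression tables, and all 39 were found among the 20325 genes of each table. The rule is a list of symbols with no threshold on a measured value. They cover glucose uptake and lactate export (Slc2a1, Slc2a3, Slc16a3), the enzymes of upper glycolysis (Hk1, Hk2, Gpi1, Pfkl, Pfkm, Pfkp, Aldoa, Aldoc, Tpi1) and those of lower glycolysis (Pgk1, Pgam1, Eno1, Eno2, Ldha). Pdk1, Pfkfb3 and Pfkfb4 regulate glycolytic flux, and Hif1a, Epas1, Egln1 and Egln3 belong to the oxygen-sensing machinery. The others are targets of that machinery in pH regulation (Car9, Car12), mitochondrial turnover (Bnip3, Bnip3l, Higd1a), secreted vascular signals (Vegfa, Adm), collagen modification and oxidative folding (P4ha1, P4ha2, Plod2, Ero1l) and other functions (Ndrg1, Ankrd37, Kdm3a, Mxi1).

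Hypoxia-inducible factors are pairs of an oxygen-sensitive alpha subunit, encoded by Hif1a or Epas1, and a stable partner. In normal oxygen the Egln prolyl hydroxylases mark the alpha subunits for degradation, so their activity is set mainly at the protein level, and when oxygen falls the pair binds a short DNA element and raises the transcription of glucose transporters, glycolytic enzymes, Pdk1, Car9, Vegfa and the collagen-modifying enzymes. Mesenchymal cells of the growth plate work in low oxygen, and cartilage depends on this response and on glycolysis.

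RNA sequencing covered 18 libraries from C3H10T1/2, a mouse embryo line of mesenchymal cells that can form bone, cartilage and fat. Of these, 12 came from cultures at passage 10 to 15: lines with stable expression of FLAG-HA-tagged histone H3.3 in wild-type form (n = 2), of the H3.3 K36M mutant (n = 2) or of the H3.1 K36M mutant (n = 2), and parental cells given a scramble siRNA (n = 3) or siRNAs to Nsd1, Nsd2 and Setd2, the H3K36 methyltransferases (HMT siRNA, n = 3). K36M replaces the lysine that these enzymes methylate with methionine. The other 6 libraries were tumors of H3.3K36M cells, taken 5 to 6 weeks after 2000000 cells in Matrigel were placed under the skin of both flanks of athymic female SCID mice aged 6 to 8 weeks, which lack functional T and B cells and keep host cells such as macrophages and endothelium. Each histone line is 1 line, the labels do not tie libraries to separate cultures or tumors to separate mice, so the p-values reflect only how far libraries of a group differ, and that spread may be technical.

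Depth was 13993307 to 56041798 estimated reads. The levels given are estimated counts, scaled by the authors within each of their tables, and values of the same cells differ between the siRNA table (10 libraries) and the xenograft table (12 libraries) because the tables were scaled separately. The ± beside each log2 fold change gives the standard error, calls are at an adjusted p under 0.05 over all genes tested, and fold changes are on the log2(level + 1) scale, which understates changes of low genes. In the siRNA table, the summed level of 8 mesenchymal markers was 530893 to 766776 per library, while the summed markers of macrophages, endothelium, red cells, skeletal muscle, neutrophils, adipocytes and keratinocytes each stayed between 5.02 and 979.9. The targeted Setd2 fell from 3247 ± 145 (SD, n = 3) to 1134 ± 82 (SD, n = 3) with HMT siRNA (log2 fold change -1.52), and Nsd1 and Nsd2, listed as Whsc1, fell by 0.52 and 0.59 on the log2 scale. Among genes with 1 to 20 estimated reads, 76.3 to 78.8% of values lay within 0.01 of a whole read in libraries of both H3.3 lines and 84.2 to 86.7% in all others. This share is not exact. Wild-type library 1 was at 77.9% in the siRNA table and 77.3% in the xenograft table, and wild-type library 2 at 76.3% and 77.2%. Both H3.3K36M libraries had the same share in both. The labels name no batch, and the comparisons of H3.1K36M cells and of tumors with H3.3 lines cross that line. Aldoa, Tpi1, Pgk1, Pgam1, Eno1 and Ldha have processed pseudogenes in the mouse genome, so reads could be divided between copies and their levels are uncertain to that extent.

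The DNA element bound by hypoxia-inducible factors has the core ACGTG or GCGTG. The 250 bases before the annotated start were searched for both cores on both strands, with overlapping matches counted, for the 34 members present in the promoter table from RefSeq (GRCm38.p6). At least 1 match was found for 30 of 34 members (88.2%), against 47.1% of 17492 protein-coding genes. The members were listed as genes of glycolysis and the hypoxia response, so a higher share is not independent support. The background was not matched for expression or base content. Counted by window, 39 of 51 windows of members (76.5%) held a match, against 44.0% of the windows of protein-coding genes and 38.6% of all windows in the table. Slc2a3, Epas1, Bnip3l, Plod2 and Ndrg1 were not searched. The windows below belong to members with large rises in tumors (Car9, Slc2a1 and Bnip3) and to Pgk1, with 2 matches and not called in tumors. Egln3 and Car12, the latter without a match, are also shown. Both entered the tumor fit only through their tumor levels, so their calls as higher are no support. Capitals mark the cores on either strand, so CACGT and CACGC are the cores read from the other strand, and CACGTG, which is also the E-box bound by other factors, counts as 2 overlapping matches. All are written 5′ to 3′ on the strand of the gene, as GRCm38.p6 reference sequence. Car9 is at chr4:43506776-43507025 (plus strand), Slc2a1 at chr4:119108495-119108744 (plus strand), Egln3 at chr12:54203875-54204124 (minus strand), Bnip3 at chr7:138909507-138909756 (minus strand), Car12 at chr9:66713436-66713685 (plus strand) and Pgk1 at chrX:106186850-106187099 (plus strand).
Car9: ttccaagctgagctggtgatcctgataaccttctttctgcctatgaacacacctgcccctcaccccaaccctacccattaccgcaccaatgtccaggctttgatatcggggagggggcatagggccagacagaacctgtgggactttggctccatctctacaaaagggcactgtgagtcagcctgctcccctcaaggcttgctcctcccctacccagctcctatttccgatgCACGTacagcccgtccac
Slc2a1: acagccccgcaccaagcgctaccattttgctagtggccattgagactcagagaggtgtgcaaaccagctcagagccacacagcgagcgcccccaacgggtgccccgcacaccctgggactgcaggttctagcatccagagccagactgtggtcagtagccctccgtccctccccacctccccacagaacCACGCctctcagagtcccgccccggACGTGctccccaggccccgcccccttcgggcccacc
Egln3: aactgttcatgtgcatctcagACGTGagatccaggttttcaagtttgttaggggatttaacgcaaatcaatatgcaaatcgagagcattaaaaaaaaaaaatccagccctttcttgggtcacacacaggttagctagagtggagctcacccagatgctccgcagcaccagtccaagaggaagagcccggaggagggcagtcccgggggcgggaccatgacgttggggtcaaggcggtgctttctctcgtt
Bnip3: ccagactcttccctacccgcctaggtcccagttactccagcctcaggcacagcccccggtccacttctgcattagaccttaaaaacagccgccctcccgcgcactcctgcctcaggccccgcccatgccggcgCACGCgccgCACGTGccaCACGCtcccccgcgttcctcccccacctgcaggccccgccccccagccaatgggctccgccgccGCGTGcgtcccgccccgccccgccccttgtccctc
Car12: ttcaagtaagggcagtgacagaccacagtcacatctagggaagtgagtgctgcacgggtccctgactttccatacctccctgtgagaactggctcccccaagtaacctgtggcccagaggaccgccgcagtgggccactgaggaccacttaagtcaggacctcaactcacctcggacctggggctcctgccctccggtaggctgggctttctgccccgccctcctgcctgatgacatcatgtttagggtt
Pgk1: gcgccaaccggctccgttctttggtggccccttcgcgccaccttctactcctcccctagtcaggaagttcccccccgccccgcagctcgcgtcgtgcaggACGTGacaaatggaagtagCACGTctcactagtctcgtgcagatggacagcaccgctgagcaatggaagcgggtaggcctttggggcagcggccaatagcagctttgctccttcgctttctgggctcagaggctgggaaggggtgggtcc
A match is a description of the letters in the window, not a bound site.

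The first comparison set H3.3K36M against wild-type H3.3 and asked how the module differs when H3.3 carries the mutation. The members moved in both directions: 12 of 36 tested were higher, 15 were lower and 9 were not called, with a median log2 fold change of 0.00092. Over all 13186 genes tested, 37.5% were higher, 33.3% lower and 70.8% either, with a median of 0.024. The share of members higher was thus near that of all genes, and the members cannot be described by 1 direction. Epas1, Hif1a, Slc2a1, Pdk1 and the mitochondrial members fell, while Gpi1, Pfkp, Aldoa, Tpi1, Pgk1, Eno1 and Eno2 rose. Slc2a3, Egln3 and Car12 were too low to be tested in cultured cells, with levels of 6.07 or less in every library of the siRNA table.

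Epas1, which encodes an alpha subunit of the hypoxia-inducible factors, stood at 1762 and 1875 in the wild-type libraries and at 28.7 and 30.5 in the H3.3K36M libraries (log2 fold change -5.89 ± 0.081, adjusted p = 8.11e-21). The groups lay far apart, and no other tested member changed as much in this comparison. Hif1a was at 6619 and 6739 in wild-type and 4451 and 4562 in H3.3K36M libraries, again without overlap (log2 fold change -0.57 ± 0.046, adjusted p = 3.05e-09). The prolyl hydroxylase gene Egln1 was at 1887 and 1798 in wild-type against 1876 and 1874 in H3.3K36M libraries and was not called (log2 fold change 0.025 ± 0.051, adjusted p = 0.676), and Egln3 was listed at 0 in all 4 libraries. The summed level of endothelial markers was 941.7 to 979.9 in wild-type and 418.7 to 464.7 in H3.3K36M libraries, with Kdr, Emcn and Cldn5 listed at 0 in the former and Cldn5 in the latter. The 3 endothelial markers tested did not move together: Tek fell (log2 -2.54), Cdh5 rose (1.71) and Vwf was not called (0.10). The part of these markers in the change of Epas1, which endothelium also expresses, was not tested. Red cell markers summed to 8.53 to 10.9 in wild-type and 633.6 to 672.9 in H3.3K36M libraries, with Hba-a2, Hbb-b1 and Slc4a1 listed at 0 in both. Only 1 of the 7 was high enough to be tested, and it rose (log2 7.11), so the sum does not describe the set.

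Slc2a1, the main glucose transporter of proliferating cells, was at 2346 and 2369.9 in wild-type and 1279.9 and 1253 in H3.3K36M libraries (log2 fold change -0.90 ± 0.044, adjusted p = 1.32e-12). Slc16a3, which exports lactate, was low in both lines, at 26.8 and 36.3 in wild-type against 29.8 and 37.4 in H3.3K36M libraries, and the groups overlapped. In upper glycolysis 5 of 9 members rose and 3 fell. Gpi1, phosphoglucose isomerase, stood at 4887 and 4891 in wild-type and 12239 and 12134 in H3.3K36M libraries (log2 fold change 1.32 ± 0.040, adjusted p = 9.86e-16), the largest rise among the members. The 3 phosphofructokinase genes split: Pfkp was at 2725 and 2620.1 in wild-type and 6347 and 5982 in H3.3K36M libraries (log2 fold change 1.21 ± 0.044), while Pfkl and Pfkm fell by 0.63 and 0.72 on the log2 scale. The hexokinase genes split too, with Hk2 at log2 0.29 and Hk1 at -0.27. Aldoa and Tpi1 rose by 0.34 and 0.35, and Aldoc, low in all cultured cells, was not called.

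In lower glycolysis, the phosphoglycerate kinase gene Pgk1 and the enolase genes Eno1 and Eno2 rose, with log2 fold changes of 0.32, 0.19 and 0.88. The call for Eno1 was lost after quantile normalisation (log2 0.05, adjusted p = 0.247). Eno2 stood at 293 and 302 in wild-type and 538 and 561 in H3.3K36M libraries. Ldha, lactate dehydrogenase A, fell by 0.13, and Pgam1 was at log2 -0.024 and not called. Pdk1, the kinase that shuts pyruvate dehydrogenase, was at 1674 and 1641 in wild-type and 374 and 366 in H3.3K36M libraries (log2 fold change -2.16 ± 0.056, adjusted p = 7.91e-17), and both mutant libraries lay far below the wild-type libraries. Pfkfb4, which makes the activator of phosphofructokinase, was at 214 and 212 in wild-type and 414 and 439 in H3.3K36M libraries (log2 fold change 1.00 ± 0.080), and its relative Pfkfb3 was not called.

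Among targets outside glycolysis, all 3 mitochondrial members fell. Higd1a, which sits in the inner mitochondrial membrane, was at 612 and 613 in wild-type and 217 and 206 in H3.3K36M libraries (log2 fold change -1.53 ± 0.089, adjusted p = 1.88e-11). Bnip3 fell by 0.64, and Bnip3l by 0.12, a call that was lost without any of 4 libraries (both wild-type libraries, H3.3K36M library 1 and HMT siRNA library 1; adjusted p 0.0561 to 0.393) and under 3 other settings (no filter, quantile normalisation and a plain variance model; adjusted p 0.0527 to 0.103). Plod2, the lysyl hydroxylase of collagen telopeptides, was at 3794 and 3969 in wild-type and 1102 and 1246 in H3.3K36M libraries (log2 fold change -1.73 ± 0.061), and P4ha2, a collagen prolyl hydroxylase subunit, fell by 0.88. Ero1l, an oxidase of the endoplasmic reticulum, rose by log2 0.66. Vegfa, the vascular growth factor, stood at 1032 and 1026 in wild-type and 2157 and 1997 in H3.3K36M libraries (log2 fold change 1.01 ± 0.050), and Adm, adrenomedullin, rose by 0.25, a call lost without H3.3K36M library 1 (adjusted p = 0.0629). Car9 was at 103 and 114 in wild-type and 69.2 and 69.1 in H3.3K36M libraries (log2 fold change -0.64 ± 0.18, adjusted p = 0.00328), and Ndrg1 fell by 0.20. Ankrd37, Kdm3a, Mxi1 and P4ha1 were not called.

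**Figure D1:**
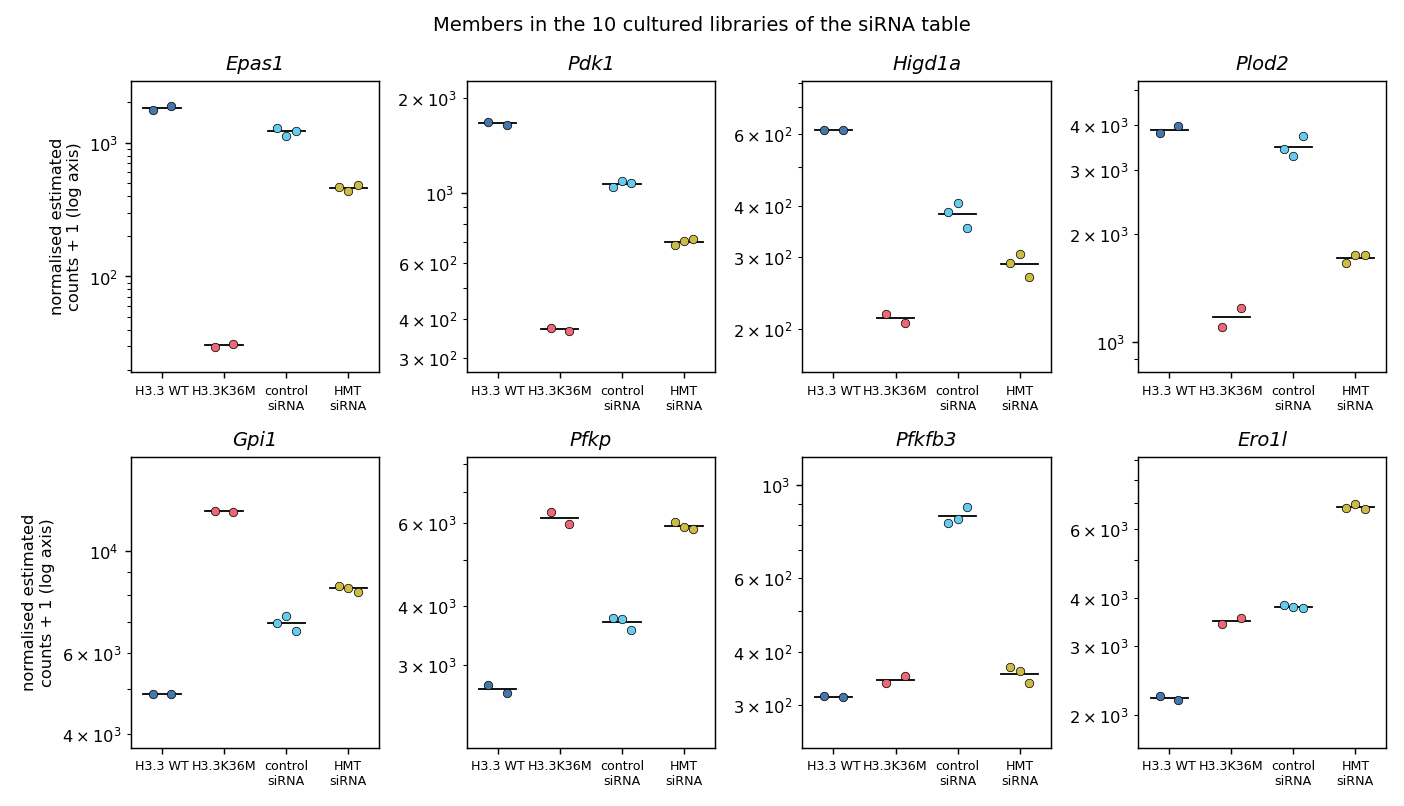
Levels (normalised estimated counts + 1, log axis, a different range per panel) of 8 members in the 10 cultured libraries of the siRNA table; points are libraries and bars are group means. Epas1, Pdk1, Higd1a and Plod2 were lower in H3.3K36M than in wild-type libraries and lower with HMT siRNA than with control siRNA, while Gpi1, Pfkp and Ero1l were higher in both. Pfkfb3 was lower with HMT siRNA and not called in H3.3K36M cells.

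The other genes of these pathways were also split. Of 21 tested genes of glucose and pyruvate metabolism outside the module, 9 rose and 10 fell, and of 32 tested genes of the hypoxia response, 11 rose and 14 fell. Angptl4, Pdk4, Eno3 and Pgf rose most, with log2 fold changes of 4.35, 4.06, 2.85 and 2.00. Pdk4 thus moved against Pdk1, whose protein acts on the same enzyme. Pyruvate carboxylase (Pcx), the mitochondrial pyruvate carrier gene Brp44 and Zfp395 fell, with -2.53, -1.11 and -0.87, and Fbp1 fell from 28.4 ± 6.53 (SD, n = 2) to a listed 0. Proliferation genes rose in 6 of 6 cases, with a summed level of 38823 to 41129.6 in wild-type and 62737 to 63463 in H3.3K36M libraries, and their part in these changes was not tested.

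The second comparison, of HMT siRNA with control siRNA, asked how the module responds when the H3K36 methyltransferases are lowered instead. Again the members split: 14 of 36 were higher, 13 lower and 9 not called, with a median log2 fold change of 0.071 (-0.0018 over all genes), and 4 changed by more than 2-fold (9.62% of all genes). Of 12634 genes tested, 32.6% were higher, 32.8% lower and 65.4% either. Epas1, Pfkfb3, Plod2 and Ndrg1 fell, and Ankrd37, Ero1l, Pfkp, Hk2 and Tpi1 rose. In total 27 of 36 members passed the test.

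Epas1 stood at 1291, 1123 and 1227 in the control libraries and 462, 432 and 480.3 in the HMT siRNA libraries (log2 fold change -1.40 ± 0.066, adjusted p = 2.74e-13). Hif1a was at 5556, 5199 and 5668 in control and 4615, 4742 and 4983 in HMT siRNA libraries, a small fall without overlap (log2 fold change -0.20 ± 0.038, adjusted p = 0.00014). Egln1 was at 1367, 1511 and 1436 in control against 1537, 1515 and 1518 in HMT siRNA libraries and was not called (adjusted p = 0.0855), although the call was gained without control library 2 (adjusted p = 0.0146). Egln3 was at 6.07, 2.51 and 3.46 in control against 5.53, 2.98 and 5.16 in HMT siRNA libraries, levels of a few reads. The summed endothelial markers were 221.4 to 256.0 in control and 83.6 to 111.2 in HMT siRNA libraries. Of 3 tested, Tek fell, from a mean of 202 to 50.5, and Vwf (log2 0.32) and Cdh5 (0.28) were not called. Their part in the fall of Epas1 was not tested.

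Slc2a1 was at 1930.4, 1907 and 1921 in control and 1689, 1692 and 1661 in HMT siRNA libraries (log2 fold change -0.19 ± 0.036, adjusted p = 0.000115). Slc16a3 stood at 27.3, 35.1 and 22.5 in control against 16.6, 25.4 and 13.4 in HMT siRNA libraries, so the groups overlapped, and its call (adjusted p = 0.0438) was lost without any of 6 libraries (both H3.3K36M libraries, HMT siRNA libraries 1 and 3 and control libraries 1 and 2; adjusted p 0.0544 to 0.197) and under 4 other settings (adjusted p 0.0648 to 0.144). Hk2, the inducible hexokinase, was at 402, 414 and 406 in control and 615, 595 and 647 in HMT siRNA libraries (log2 fold change 0.60 ± 0.059, adjusted p = 2.03e-08), and all 3 knockdown libraries lay above the controls. Pfkp was at 3785, 3755 and 3558 in control and 6032, 5880.1 and 5821 in HMT siRNA libraries (log2 fold change 0.68 ± 0.036), and Tpi1, triosephosphate isomerase, at 7432, 7668 and 7117 in control and 11157, 11309 and 10847 in HMT siRNA libraries (0.58 ± 0.035). Gpi1 rose by 0.25, and Pgk1, Eno1 and Ldha rose by 0.26, 0.21 and 0.31. Pfkl was called higher at log2 0.10 with overlapping groups, a call lost without HMT siRNA libraries 1 or 2 or control libraries 1 or 3 (adjusted p 0.0764 to 0.13) and under 3 other settings (adjusted p 0.0578 to 0.227). Pfkm and Eno2 fell by 0.34 and 0.48. With replicate number as a block, Aldoa at log2 -0.072 and Vegfa at 0.090 also passed the test (adjusted p = 0.0382 and 0.0487, against 0.102 and 0.0606 without the block).

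Pfkfb3 makes the activator of phosphofructokinase, as Pfkfb4 does. It fell from 812, 826 and 884 in control libraries to 367, 359.6 and 336 in HMT siRNA libraries (log2 fold change -1.24 ± 0.062, adjusted p = 5.59e-13). In the histone lines Pfkfb3 was at 314 and 311 in wild-type and 336 and 350.2 in H3.3K36M libraries, below the control siRNA level in all 4. This sets histone lines beside parental cells given siRNA and crosses the divide in the share of whole reads, so the gap was not tested. Pdk1 fell by 0.61, and Pfkfb4 was not called. Plod2 was at 3432, 3287 and 3722 in control and 1659.8, 1741 and 1748 in HMT siRNA libraries (log2 fold change -1.02 ± 0.049), and Ndrg1, a stress-response gene, at 5127, 5352 and 5288 in control and 2724, 2818 and 2701 in HMT siRNA libraries (-0.94 ± 0.033). Both genes were lower in every knockdown library than in any control library. Ero1l was at 3832, 3777 and 3766 in control and 6793, 6940.2 and 6759 in HMT siRNA libraries (log2 fold change 0.85 ± 0.033), and Ankrd37, a small ankyrin-repeat gene, at 25.8, 45.2 and 32.9 in control and 86.3, 117 and 102 in HMT siRNA libraries (log2 fold change 1.56 ± 0.18, adjusted p = 2.13e-07). Bnip3 and Higd1a fell by 0.51 and 0.41, while Bnip3l rose by 0.16. Adm, P4ha1 and Kdm3a rose by 0.37, 0.22 and 0.23. Mxi1, an antagonist of Myc, was lower by 0.15 (log2 -0.15), a call lost without HMT siRNA library 3 (adjusted p = 0.0842) or control library 1 (adjusted p = 0.061). Car9 was at 39.5, 42.3 and 41.5 in control and 48.1, 53.7 and 44.4 in HMT siRNA libraries, without overlap but not called at these low levels (adjusted p = 0.163). It passed after quantile normalisation and with a plain variance model (adjusted p = 0.0183 and 0.0209).

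Outside the module, 9 of 21 tested glucose and pyruvate genes rose and 10 fell, and 9 of 32 hypoxia genes rose and 9 fell. Pdk4, Edn1, Angptl4 and Flt1 rose by log2 1.74, 1.57, 1.09 and 0.88. Stc1, Fbp1, Ppp1r3c and Pcx fell by 1.51, 1.38, 1.08 and 1.01, the first 3 of them from mean levels of 25.1 or less. The 6 proliferation genes all rose more than 2-fold, with a summed level of 13053 to 15292 in control and 37987 to 41100.3 in HMT siRNA libraries, and their part in these changes was not tested.

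Whether the mutant and the knockdown changed a member by different amounts was tested in 1 model, and 26 of 36 members passed: 8 with a higher and 18 with a lower value in the mutant response. Among all genes tested 27.5% were higher, 27.4% lower and 54.9% either, so the share of members with a lower value exceeded that of all genes. The median difference was -0.14 for the members and -0.0034 for all genes. In size, the 2 responses differed most for Epas1 (log2 -4.49 ± 0.10), Ankrd37 (-1.98 ± 0.28), Pdk1 (-1.55 ± 0.072), Higd1a (-1.13 ± 0.11) and Car9 (-0.88 ± 0.23) on the lower side. On the higher side stood Pfkfb3 (1.38 ± 0.10), Eno2 (1.36 ± 0.10), Gpi1 (1.07 ± 0.052), Vegfa (0.92 ± 0.064) and Pfkfb4 (0.90 ± 0.10). Slc2a1, Pfkl, P4ha2 and Plod2 were lower in the mutant response by 0.70, 0.73, 0.81 and 0.71 on the log2 scale.

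In direction, 8 members rose in both comparisons: Hk2, Gpi1, Pfkp, Tpi1, Pgk1, Eno1, Adm and Ero1l, which are 8 of the 12 higher in H3.3K36M cells and 8 of the 14 higher with HMT siRNA. Among 12634 genes tested in both, 20.8% rose in both, which are 57.9% of those higher in H3.3K36M cells and 64% of those higher with HMT siRNA. Another 9 fell in both: Slc2a1, Pfkm, Pdk1, Hif1a, Epas1, Bnip3, Higd1a, Plod2 and Ndrg1, which are 9 of the 15 and 9 of the 13 lower. Of all genes 20.8% fell in both (60.6% and 63.4% of those lower), so both overlaps of the members lay near those of all genes. Eno2 rose in H3.3K36M cells and fell with HMT siRNA, and its interaction was called (adjusted p = 2.34e-09). Pfkl, Ldha and Bnip3l fell in H3.3K36M cells and rose with HMT siRNA, and each difference was called (log2 -0.73, -0.45 and -0.27). Bnip3, Pgk1, Eno1 and Adm moved the same way in both, and their differences did not pass (-0.12 ± 0.085, 0.057 ± 0.057, -0.023 ± 0.058 and -0.12 ± 0.093), which leaves room for differences of about 2 standard errors. P4ha1 passed at log2 -0.15, a call lost without any of 6 libraries (all 4 histone libraries, HMT siRNA library 2 and control library 1; adjusted p 0.0536 to 0.0831) and under 2 other settings (adjusted p = 0.118 and 0.0639). The 2 comparisons use separate controls, and the control siRNA cells were parental cells, not the wild-type histone line.

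**Figure D2:**
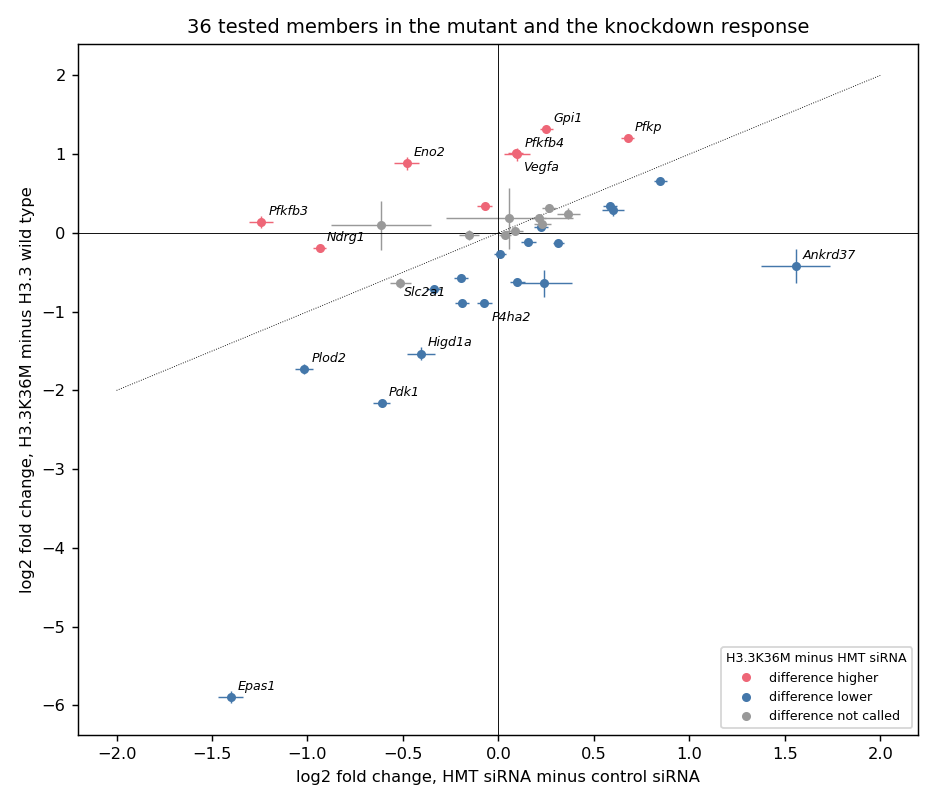
Log2 fold change of the 36 tested members with HMT siRNA (horizontal axis) and with H3.3K36M (vertical axis), each with its standard error; colour gives the call of the difference and the dotted line marks equal responses. Epas1 lies at -1.40 and -5.89, Pdk1 and Higd1a lie below the line of equal responses, and Gpi1, Eno2 and Pfkfb3 lie above it.

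Of the other pathway genes, the difference was called in 11 of 21 glucose and pyruvate genes (6 higher, 5 lower) and in 25 of 32 hypoxia genes (11 higher, 14 lower). Angptl4, Eno3, Pdk4 and Ppp1r3c were higher in the mutant response by log2 3.26, 2.46, 2.32 and 2.04, and Fbp1 (listed at 0 in the mutant), Pcx, Ak4 and Cited2 were lower, the last 3 by 1.53, 1.43 and 1.43.

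H3.1K36M cells were compared with both H3.3 lines in the xenograft table to ask whether the same substitution in the other histone goes with the same levels. No library came from wild-type H3.1 cells. Against H3.3 wild type, the mutation, the histone and the line thus cannot be told apart. Against wild-type cells, 14 of 36 members were higher, 15 lower and 7 not called, with a median log2 fold change of -0.034 (0.020 over all genes), and 6 rose and 6 fell by more than 2-fold, against 12.6% and 12.2% of all genes. Of 13404 genes tested, 41.1% were higher, 38.4% lower and 79.5% either. Against H3.3K36M cells, 22 members were higher, 6 lower and 8 not called, with a median of 0.32 against 0.0059 for all genes. There 35.4% of all genes were higher, 32.8% lower and 68.2% either, so the share of members that were higher, at 22 of 36, stood above that of all genes. This count rests on the model of 6 libraries. With the 6 tumors added, which widened the estimated spread, 4 members were higher and 2 lower, against 9.48% and 11.5% of all genes. Of the 28 calls 6 were kept: Hk1, Hk2, Pfkp and Pfkfb4 as higher and Epas1 and Mxi1 as lower. The others, Adm, Slc2a1, Vegfa and P4ha2 among them, were lost there. Glycolytic enzymes made up 11 of the 22 members higher in the model of 6 libraries. There 8 of 9 upper and 3 of 5 lower members were higher in H3.1K36M than in H3.3K36M cells. The 2 comparisons share the H3.1K36M libraries, and that with wild-type cells shares its controls with the H3.3K36M comparison above.

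Epas1 was at 2370.3 and 2538 in wild-type, 37.8 and 40.3 in H3.3K36M and 14 and 6.75 in H3.1K36M libraries. The order of the lines did not overlap, although the H3.1K36M values stand for few reads (against wild type log2 fold change -7.83 ± 0.24, adjusted p = 5.44e-11, and against H3.3K36M cells log2 fold change -1.90 ± 0.24, adjusted p = 3.59e-05). Hif1a was at 8906 and 9124 in wild-type, 5868 and 6021 in H3.3K36M and 6113 and 6064 in H3.1K36M libraries, lower than wild type in both mutants and not called between them (log2 0.035 ± 0.032). Egln1 was at 2539.5 and 2434 in wild-type, 2473 and 2474 in H3.3K36M and 2347 and 2423 in H3.1K36M libraries, with no call in either comparison, and Egln3 was listed at 0 in all 6 libraries. The summed endothelial markers followed the order of Epas1, at 1275 to 1319 in wild-type, 552.7 to 612.6 in H3.3K36M and 159.1 to 166.1 in H3.1K36M libraries. In H3.1K36M cells Tek and Vwf, of 3 markers tested, were lower than in wild type and all 3 were lower than in H3.3K36M cells, and their part was not tested.

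Slc2a1 was at 3157 and 3208, 1687 and 1654 and 2789 and 2636 in the wild-type, H3.3K36M and H3.1K36M libraries, so that the H3.1 mutant lay between the others (log2 -0.23 ± 0.040 against wild type and 0.70 ± 0.040 against H3.3K36M). Slc16a3 was at 36.1 and 49.1 in wild-type, 39.3 and 49.4 in H3.3K36M and 21.6 and 18.2 in H3.1K36M libraries, lowest in H3.1K36M cells (log2 -1.05 and -1.11). Slc2a3 was listed at 0 in both wild-type libraries and was at 4.05 and 1.9 in H3.3K36M and 2.09 and 0.958 in H3.1K36M libraries and was not tested. Hk2 stood at 494 and 526 in wild-type, at 603 and 611 in H3.3K36M and at 1960.3 and 1829.8 in H3.1K36M cells (log2 1.89 ± 0.058 and 1.64 ± 0.058). Pfkp was at 3667 and 3547 in wild-type, 8367 and 7896 in H3.3K36M and 13211 and 13097 in H3.1K36M libraries and Gpi1 at 6575 and 6621 in wild-type, 16135 and 16016 in H3.3K36M and 21401 and 20685 in H3.1K36M libraries, each rising from wild type over H3.3K36M to H3.1K36M without overlap. The same order held for Aldoa, Tpi1, Pgk1 and Eno1, which were above wild type by log2 0.81, 0.83, 0.70 and 0.58 and above H3.3K36M cells by 0.51, 0.52, 0.41 and 0.42. Eno2 was above wild type by 0.66 and below H3.3K36M cells by 0.19 (log2 -0.19), a call lost without H3.3K36M library 2 (adjusted p = 0.0999) or H3.1K36M library 1 (adjusted p = 0.137).

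Pfkfb4 was at 289 and 287 in wild-type, 546 and 580.0 in H3.3K36M and 1382 and 1391 in H3.1K36M libraries (log2 fold change 2.26 ± 0.061, adjusted p = 4.81e-14 against wild type, and log2 1.30 ± 0.061 against H3.3K36M). Pdk1 was at 2252 and 2221 in wild-type, 493 and 482 in H3.3K36M and 618 and 646 in H3.1K36M libraries, low in both mutants (log2 -1.82 ± 0.053 against wild type) and slightly higher in the H3.1 mutant (log2 0.37 ± 0.053 against H3.3K36M). Vegfa was at 1389 and 1389 in wild-type, 2844 and 2636 in H3.3K36M and 3976 and 3885 in H3.1K36M libraries (log2 1.50 ± 0.043 and 0.52 ± 0.043). Adm set the mutants apart in the model of 6 libraries. It was at 664 and 670.0 in wild-type, 795 and 752 in H3.3K36M and 311 and 265 in H3.1K36M libraries. It fell in H3.1K36M cells against both lines (log2 -1.21 ± 0.077 and -1.43 ± 0.077), calls that were lost with the tumors added. Car9 was at 139 and 154 in wild-type, 91.2 and 91.3 in H3.3K36M and 53 and 43 in H3.1K36M libraries, lowest in H3.1K36M cells (log2 -1.60 ± 0.16 and -0.92 ± 0.16).

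Of the 4 collagen and folding members, P4ha2, Plod2 and Ero1l were higher in H3.1K36M than in H3.3K36M cells. P4ha2 was at 3807 and 4144, 2127 and 2079 and 4514 and 4486 in the wild-type, H3.3K36M and H3.1K36M libraries, so that H3.1K36M cells lay above wild type (log2 0.18 ± 0.042) and further above H3.3K36M cells (1.10 ± 0.042). Plod2 was at 5105 and 5373 in wild-type, 1453 and 1645 in H3.3K36M and 2709.9 and 2657 in H3.1K36M libraries (log2 -0.96 ± 0.051 and 0.80 ± 0.051), and P4ha1 was not called in either comparison. Ero1l was at 3016 and 2954 in wild-type, 4512 and 4691 in H3.3K36M and 7751 and 7992 in H3.1K36M libraries (log2 1.40 ± 0.035 and 0.77 ± 0.035). Mxi1 was at 1324 and 1211 in wild-type, 1244 and 1184 in H3.3K36M and 762 and 692 in H3.1K36M libraries, lower in H3.1K36M cells than in both other lines (log2 -0.80 and -0.74). Bnip3 and Higd1a lay between the H3.3 lines, below wild type by 0.31 and 1.04 and above H3.3K36M cells by 0.36 and 0.53. Of the small calls against H3.3K36M cells, Bnip3l (log2 0.11) was lost without H3.3K36M library 1 or either H3.1K36M library (adjusted p 0.101 to 0.24) and Kdm3a (log2 0.12) without H3.3K36M library 1 or H3.1K36M library 2 (adjusted p 0.0584 to 0.136). After quantile normalisation both were also lost (adjusted p = 0.227 and 0.13).

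**Figure D3:**
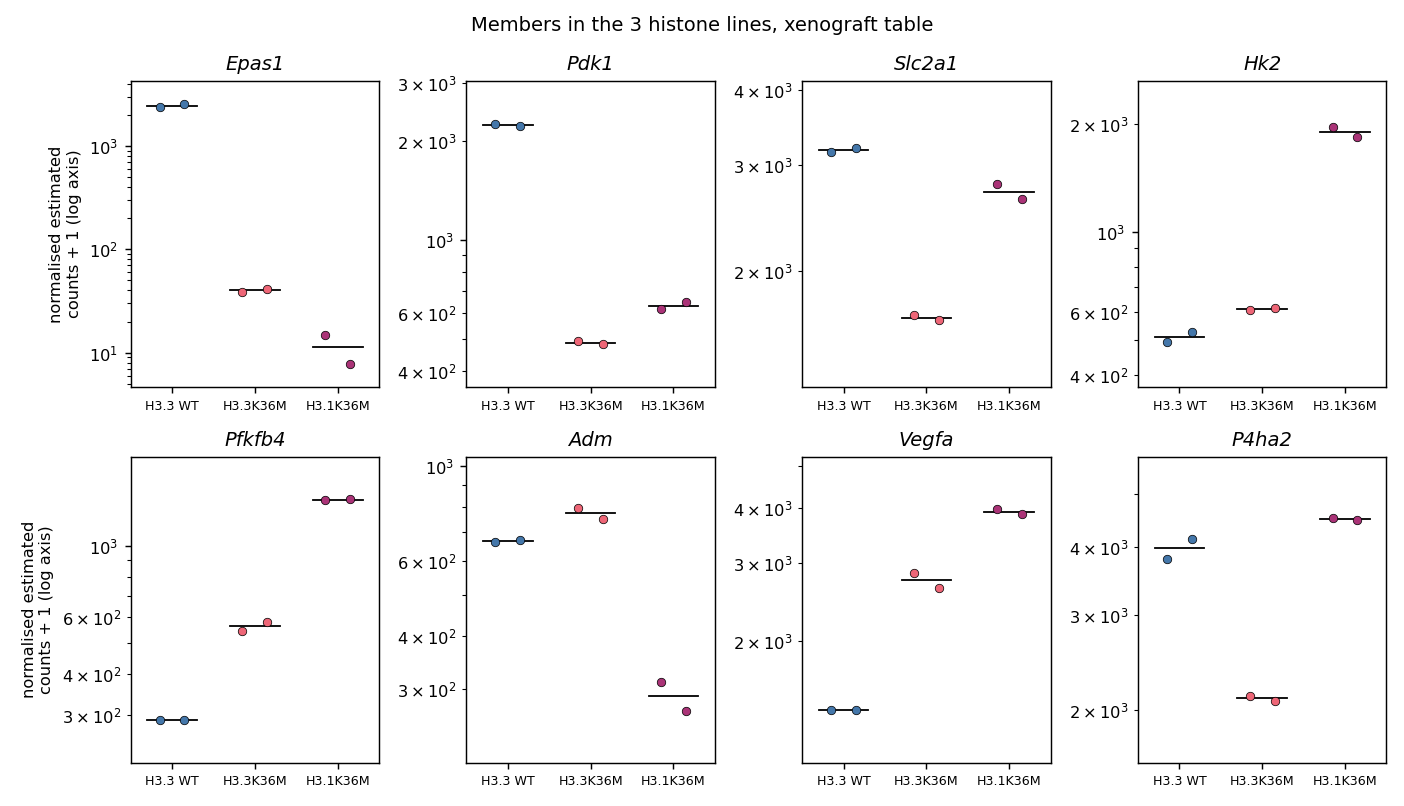
Levels (normalised estimated counts + 1, log axis, a different range per panel) of 8 members in the 6 cultured libraries of the 3 histone lines in the xenograft table; points are libraries and bars are group means. Hk2, Pfkfb4 and Vegfa were highest and Adm and Epas1 lowest in H3.1K36M cells, while Slc2a1, Pdk1 and P4ha2 were lowest in H3.3K36M cells.

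Against wild type, the model with the tumors added called 8 members higher and 5 lower (22.9% and 19.6% of all genes), with 12 of the 29 calls kept and 1 call of a member that the smaller model did not test. Outside the module, 11 of 23 tested glucose and pyruvate genes were higher and 8 lower than in wild type, and 10 of 32 hypoxia genes were higher and 17 lower. Pdk4, Eno3, Angptl4 and Edn1 were higher by log2 4.68, 4.35, 3.54 and 3.17, and Selenbp1 and Pcx were lower by 2.80 and 2.47, with Fbp1 listed at 0 and Slc2a4 at a mean of 0.806. Against H3.3K36M cells the counts were 9 higher and 6 lower, and 10 higher and 15 lower, led by Edn1, Eno3, Ddit4 and Hmox1 (log2 2.58, 1.53, 1.12 and 1.08). Selenbp1, Slc2a4 and Stc2 were lower, from mean levels of 63.8 or less in H3.3K36M cells. The 6 proliferation genes were all lower than in H3.3K36M cells, with a summed level of 51002 to 51022 against 82709 to 83768, and their part was not tested.

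Tumors grown from H3.3K36M cells were compared with the same line in culture, and here the module moved largely 1 way. Of 39 members tested, 27 were higher, 3 lower and 9 not called, and 21 rose and 1 fell by more than 2-fold, against 26.5% and 20.7% of all genes. These counts include Slc2a3, Car12 and Egln3, which entered the fit only through their tumor levels. Their calls as higher were thus nearly fixed in advance and are no support. The median log2 fold change was 1.23, against 0.14 over all 14842 genes tested, of which 41% were higher, 34.2% lower and 75.2% either. Slc2a1, Slc16a3, all 3 flux regulators, Car9 and 7 of 9 upper glycolytic enzymes rose, while no member of the collagen and folding group was called. The median of all genes was -0.08 after quantile normalisation and 0.06 with median-of-ratios scaling, and the counts were then 25 higher and 3 lower, and 26 higher and 5 lower. Without either cultured library 22 members were higher and 1 lower. Without tumor 5 the counts were 28 and 3, and without tumor 6 the lower count was 5. The shares of all genes called under these settings are not given, so these counts are not set against all genes.

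Slc2a1 was at 1687 and 1654 in cultured cells and at 4344 to 14535 with a median of 12312 in tumors (log2 fold change 2.66 ± 0.39, adjusted p = 0.000226), and every tumor exceeded both cultures. Slc2a3, a high-affinity glucose transporter, was at 4.05 and 1.9 in culture and 229 to 389 with a median of 237 in tumors. Slc16a3 was at 39.3 and 49.4 in culture and 609 to 1934 with a median of 1469 in tumors (log2 fold change 4.86 ± 0.37, adjusted p = 3.33e-06). Uptake and export genes were thus higher in all 6 tumors than in either culture. Car9, which acidifies the surroundings of hypoxic cells, was at 91.2 and 91.3 in culture and 1099.8 to 9342 with a median of 4202 in tumors (log2 fold change 5.39 ± 0.61, adjusted p = 4.23e-05). Car12, its relative, was at 0.578 and 1.9 in culture and 48.6 to 245 with a median of 115 in tumors. For Slc2a3, Car12 and Egln3 the cultured levels amount to a few reads or none, so no fold or p-value is given.

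In the oxygen-sensing group, Hif1a and Epas1 moved in opposite directions. Hif1a fell from 5868 and 6021 in culture to 967 to 2110.2 with a median of 1144 in tumors (log2 fold change -2.28 ± 0.26, adjusted p = 4.21e-05), and every tumor lay below both cultures. Epas1 rose from 37.8 and 40.3 to 847 to 1353 with a median of 1033 (log2 fold change 4.74 ± 0.18, adjusted p = 2.38e-08), with no overlap, and remained below the 2370.3 and 2538 of wild-type cells in culture. Egln3, a prolyl hydroxylase that hypoxia itself induces, was listed at 0 in both cultures and at 111 to 280.3 with a median of 129 in tumors. Egln1 was at 2473 and 2474 in culture and 3082 to 5369.5 with a median of 4735 in tumors (log2 fold change 0.88 ± 0.19, adjusted p = 0.00235). The summed endothelial markers were 552.7 to 612.6 in culture and 11469.7 to 30740.6 in tumors, with 8 of 9 markers higher, and macrophage markers were 122.7 to 136.5 in culture and 66140.1 to 77574 in tumors, with 9 of 9 higher.

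Among the enzymes of upper glycolysis, Aldoc rose by log2 2.90 ± 0.41 from low cultured levels, Pfkl by 1.79 ± 0.31, Tpi1 by 1.49 ± 0.23, Hk2 by 1.46 ± 0.28, Aldoa by 1.42 ± 0.26 and Gpi1 by 1.26 ± 0.23. Gpi1 stood at 16135 and 16016 in culture and 27364 to 52256 with a median of 42335 in tumors, and Hk1 rose by 0.41. The 3 phosphofructokinase genes split again, with Pfkl higher and Pfkp and Pfkm lower. Pfkp was at 8367 and 7896 in culture and 3712 to 7341 with a median of 5082 in tumors (log2 fold change -0.68 ± 0.21, adjusted p = 0.0136), and Pfkm at 2525 and 2470.0 in culture and 1572 to 2142 with a median of 2011 in tumors (log2 fold change -0.35 ± 0.12, adjusted p = 0.0253). All 6 tumors lay below both cultures for Pfkp and Pfkm and above them for Pfkl. In lower glycolysis Eno2 rose by 1.71 ± 0.34 and Ldha by 0.56 ± 0.17, while Pgk1 (log2 0.023 ± 0.27) and Eno1 (0.12 ± 0.20) were not called. Pgam1 was called at log2 0.55 (adjusted p = 0.0498) with overlapping groups, and the call was lost without any library other than tumor 5 (adjusted p 0.0669 to 0.187) and under 5 other settings (adjusted p 0.0515 to 0.201). The calls of Hk1, Ldha, Mxi1, Pdk1, Pfkm and Pfkp were lost without either cultured library (adjusted p 0.0521 to 0.129), and that of Ldha also after quantile normalisation (log2 0.04, adjusted p = 0.839).

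Pfkfb4, Pdk1 and Pfkfb3 rose by log2 2.07 ± 0.15, 1.23 ± 0.35 and 0.86 ± 0.19. Pfkfb4 had the least spread of these, at 1804 to 2688 with a median of 2466 in tumors against 546 and 580.0 in culture. Bnip3 and Higd1a rose by 2.29 ± 0.40 and 2.29 ± 0.28, Ankrd37 by 3.60 ± 0.42, Ndrg1 by 1.51 ± 0.24, Vegfa by 1.18 ± 0.24 and Mxi1 by 0.74 ± 0.22. Of the 15 members lower in cultured H3.3K36M than in wild-type cells, Hif1a and Pfkm were lower again in tumors, Plod2, P4ha2 and Bnip3l were not called and the other 10 were higher. The comparisons share the H3.3K36M libraries, so nothing is read from these opposite signs. Plod2 (log2 -1.23 ± 0.51, adjusted p = 0.0508), P4ha1 (0.36 ± 0.29), P4ha2 (-0.24 ± 0.46), Ero1l (0.39 ± 0.56), Adm (-0.39 ± 0.51), Kdm3a (-0.40 ± 0.18) and Bnip3l (-0.051 ± 0.16) were not called. Plod2 and Kdm3a passed as lower without tumor 6 (log2 -1.52 and -0.45, adjusted p = 0.00182 and 0.0265), and P4ha1 as higher without tumor 5 (log2 0.52, adjusted p = 0.0353). Of the 24 rising members with a promoter window, 20 held the core ACGTG or GCGTG, as did 10 of 10 other members with a window. The 24 include Egln3 and Car12, whose calls as higher were nearly fixed in advance.

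**Figure D4:**
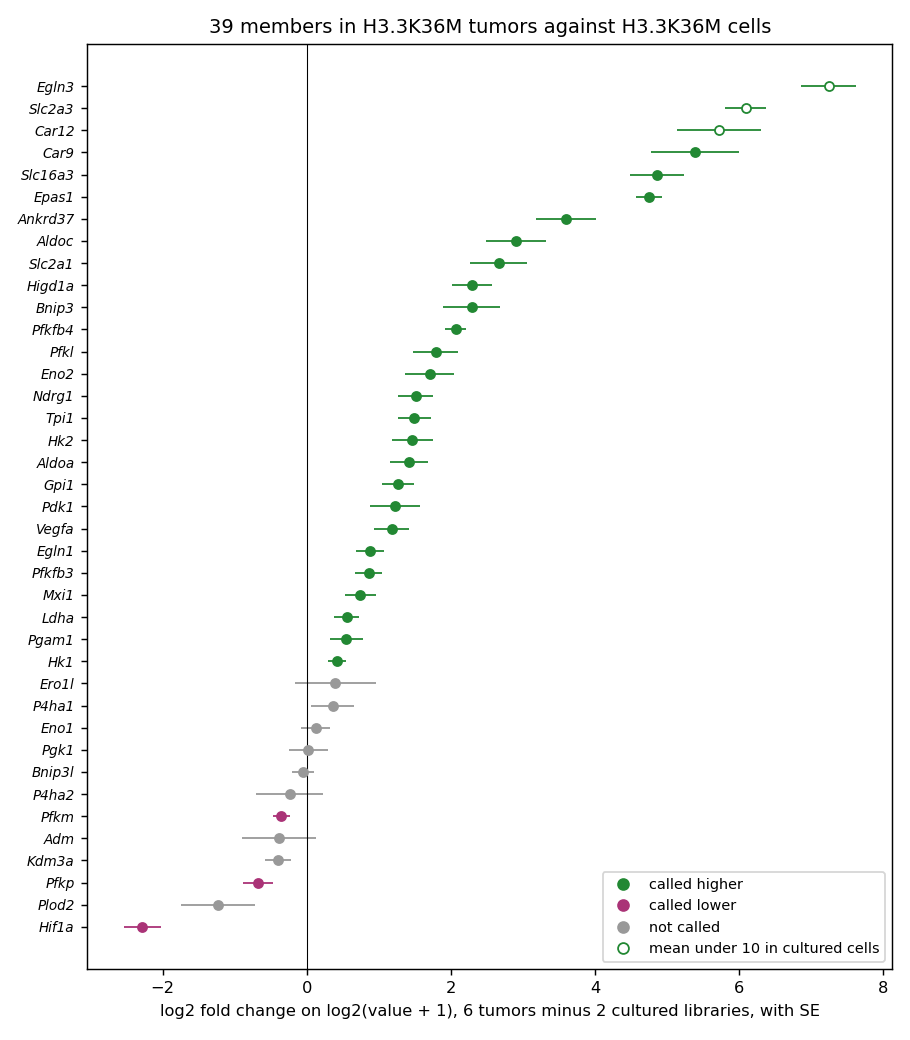
Log2 fold change of the 39 members in 6 H3.3K36M tumors against 2 cultured H3.3K36M libraries, with standard errors, ordered by size; open points mark members with a mean under 10 in culture, whose size depends on the added 1. The members called lower are Hif1a, Pfkp and Pfkm, and 27 members were called higher, including the open points, which entered the fit only through their tumor levels.

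Tumors are mixtures, and in such bulk samples fewer cells of a type and less RNA per cell cannot be told apart. Red cell markers were at a summed 836.3 to 887.1 in culture and 7672 to 19477 in tumors (5 of 6 tested higher), skeletal muscle markers at 645.9 to 657.3 and 1382 to 26528 (7 of 9 higher), neutrophil markers at 441.6 to 523.0 and 1942 to 3003 (4 of 4 tested higher), adipocyte markers at 17.3 to 21.8 and 591.1 to 4161 (4 of 5 higher) and keratinocyte markers at 171.4 to 187.5 and 166.0 to 28887 (3 of 6 higher). Defining markers listed at 0 in the cultured libraries were Cldn5, Krt1, Myh2, S100a9, Retnlg, Plin1, Cidec, Lep, Hba-a2, Hbb-b1 and Slc4a1. Mesenchymal markers went from 700758 to 751804 in culture to 260931 to 304858 in tumors, with 4 of 8 lower (Col1a1, Col1a2, Pdgfrb and Prrx1), 2 higher (Thy1 and Twist1) and Vim and Pdgfra not called. Col1a1 and Col1a2 carried most of that sum in culture, with log2 fold changes of -2.21 and -2.04. Summed proliferation genes went from 82709 to 83768 in culture to 18626 to 33084 in tumors, with 5 of 6 lower. The part of host cells in the changes of the members was not tested.

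Outside the module, 8 of 25 tested glucose and pyruvate genes were higher in tumors and 9 lower, and 16 of 35 hypoxia genes were higher and 7 lower. Hk3, a hexokinase of myeloid cells, stood at a mean of 2597 in tumors and 1.42 in culture, Kdr, an endothelial receptor, at 494 and 1.82, Nos2 at 181 and 0.475, and Fbp1 at 88.4 against a listed 0. Lox, lysyl oxidase, Pdk4 and Rora fell, with log2 fold changes of -7.66, -4.37 and -3.72, the last from a mean level of 80.9.

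The 6 tumors were not alike in the module. Tumor 5 was the lowest of the 6 for 35 of 39 members, whereas it was the lowest for 13.6% of all genes tested, and it was the highest for none of the members. Its median over the members lay 0.69 below the tumor median on the log2 scale. Tumor 6 was the highest for 21 members and tumor 4 for 14, against 39.5% and 23.6% of all genes. Among the 27 members called higher in tumors, tumor 5 was the lowest for 24. These 27 include Slc2a3, Egln3 and Car12, whose calls as higher were nearly fixed in advance. Pfkm, Pfkfb4, Epas1 and Car12 were the members whose lowest tumor was not tumor 5.

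The spread between the highest and the lowest tumor was 8.49-fold for Car9, 7.30-fold for Ero1l, 5.91-fold for Plod2 and 5.75-fold for Adm, and 1.36-fold for Pfkm and 1.37-fold for Hk1. Car9 stood at 3852, 3925, 4479, 4726, 1099.8 and 9342 in tumors 1 to 6, so that tumor 5 lay lowest and tumor 6 highest, though tumor 5 still exceeded both cultures at 91.2 and 91.3. Slc2a1 was at 12136, 11501, 12487, 14535, 4344 and 12842, 1 low tumor beside 5 that lay close together. Ankrd37 was at 1052, 1124, 1515, 1483, 418 and 1090.2, Bnip3 at 4964, 4689.6, 5699.9, 6361, 1822 and 4584 and Adm at 625.5, 529.8, 736, 718, 205 and 1178. These 3 genes share the low value of tumor 5, and Adm and Ero1l were highest in tumor 6, the latter at 5592, 5310.1, 6336, 7423, 2182 and 15929. Hif1a was at 1257, 996, 1163, 1124, 967 and 2110.2 and Aldoc at 164, 121, 122, 120.4, 116 and 349, both with tumor 6 above the rest. Epas1, at 1063, 965, 1002, 847, 1293 and 1353, differed from these genes in its order, with tumor 5 next to tumor 6 at the top. Car12 was at 172, 76.8, 84.3, 48.6, 146 and 245, with tumor 4 lowest.

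Tumor 5 was also the lowest for the summed other genes of both pathways. Their summed level in tumor 5 was 228983 for glucose and pyruvate genes, against 251641 to 425703 in the other tumors. For hypoxia genes it was 97227.5, against 117930 to 145060 in the others. The sum of the hypoxia genes was 178351 to 180874 in culture, although 16 of 35 tested rose in tumors and 7 fell. A sum thus does not describe its list, and genes lowest in tumor 5 were not counted. Tumor 5 did not lie at an end of the marker sums for macrophages (74512, between 66140.1 and 77574), endothelium (15097.5, between 11469.7 and 30740.6), mesenchyme (288169, between 260931 and 304858) or proliferation (28577.5, between 18626 and 33084). It was the highest for adipocyte markers (4161) and next to highest for keratinocyte (25769) and skeletal muscle markers (9061), behind tumor 1 (28887) and tumor 6 (26528). Its depth was the lowest of the tumors, at 24659432 estimated reads against up to 55811835. The part of these differences in the member levels was not tested, and the labels do not divide the tumors into groups.

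**Figure D5:**
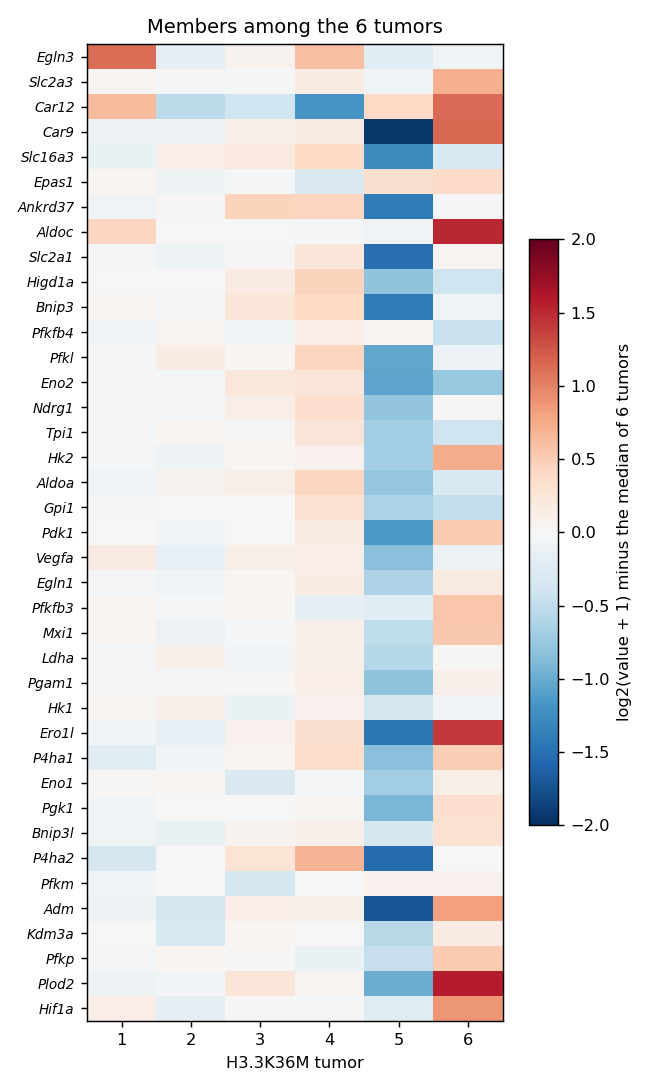
Level of each of the 39 members in each tumor, as log2(level + 1) minus the median of the 6 tumors, ordered by the change against cultured cells; blue is below and red above the tumor median. The column of tumor 5 is blue for most members, with Car9, Adm, Ero1l and Slc2a1 among the lowest, and the column of tumor 6 holds the highest values of Plod2, Aldoc and Ero1l.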

How the data were processed

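RNA was extracted with Trizol and made into TruSeq libraries, as the labels' protocols state. Reads were aligned with Bowtie 1.0.0 to mm9 and quantified with RSEM 1.2.12 (submitters' processing notes). In 3 tables of 20325 genes and 26 columns, the authors deposited a signal, namely RSEM estimated counts divided by a factor per library (median normalisation, per the file names). All values were multiples of 0.01 of 1 estimated read, which gave the depths. They were not whole reads, so no count model was used.

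Values were tested on log2(value + 1) with limma 3.58.1 in R 4.3.3 (eBayes with trend and robust options, two-sided, Benjamini-Hochberg over all genes tested, threshold 0.05). A gene entered a fit if it reached 10 in a number of its libraries equal to the size of the smaller group. H3.3K36M, HMT siRNA and their difference came from 1 fit of 10 libraries, H3.1K36M from a fit of 6 and tumors from a fit of 8. The 4-library table served as an alternative only. Only the comparison of H3.3K36M with wild type in the fit of 10 libraries was tried on simulated data. The same spread setting was used for all genes, and the other comparisons and fits were not simulated. Other steps used Python 3.11.15, numpy 2.4.6, pandas 2.3.3 and matplotlib 3.10.9.

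The members and lists were chosen with earlier results of these data known. Members with values in every library are the 5 largest called rises and falls per comparison and those in glucose uptake, oxygen sensing and pH regulation; members named beyond that were chosen after their values were seen. Of other pathway genes, up to 4 called per direction are named, except 1 that is not reported here. Same-numbered control and HMT siRNA libraries deviated together from their group means (r = 0.158, 0.248 and 0.292 over 10446 genes). The reported fits did not use the numbers as pairs, and the replicate block was run only as an alternative. Differently numbered libraries had r from -0.33 to 0.174, and control library 2 with HMT siRNA library 1 lay above the lowest same-numbered pair. No such pairing was found for the histone lines (r = -0.0149 to 0.0477). No 2 libraries were identical. Promoter windows came from RefSeq on GRCm38.p6, not mm9. Alternatives were the pseudocount, the filter, the scaling, the variance model, the replicate block, other sets of libraries and leaving out each library.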

Additional observations from a re-analysis of the deposited data

Results flagged for a closer look

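For 9 of 39 members, 1 tumor stood apart from the other 5 by more than Dixon's critical value of 0.625 for the gap over the range. Chance alone gives about 1 in 20 such gaps per gene, and the genes share their tumors. The share of all genes with such a gap was not computed, so the count is not read as a trait of the members. Over all genes tested, tumor 6 was the highest for 39.5% and the lowest for 30.4%. Tumor 5 was low for Slc2a1 (4344), Pgam1 (17058) and Ldha (26372). Tumor 6 was high for Slc2a3 (389), Aldoc (349), Pfkfb3 (1181), Hif1a (2110.2) and Plod2 (1792). Tumor 3 was low for Pfkm (1572).

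For 26 of 36 members the responses to H3.3K36M and to HMT siRNA differed by the test of the difference (limma, adjusted p under 0.05). Of all 13186 genes tested, 54.9% differed by the same test. The mutant response minus the knockdown response, in log2 fold change, was lower for Epas1 (-4.49), Ankrd37 (-1.98), Pdk1 (-1.55), Higd1a (-1.13), Car9 (-0.88), P4ha2 (-0.81), Pfkl (-0.73), Plod2 (-0.71), Slc2a1 (-0.70), Ldha (-0.45), Pfkm (-0.38), Hif1a (-0.37), Hk2 (-0.32), Hk1 (-0.28), Bnip3l (-0.27), Tpi1 (-0.24), Ero1l (-0.19) and P4ha1 (-0.15). It was higher for Pfkfb3 (1.38), Eno2 (1.36), Gpi1 (1.07), Vegfa (0.92), Pfkfb4 (0.90), Ndrg1 (0.74), Pfkp (0.53) and Aldoa (0.41).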

How the results depend on the processing

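Over all comparisons and alternatives, 3160 of 3356 member values kept their direction and their side of the threshold, 110 lost the call, 40 gained one and 46 changed sign. No member called in the reported fits changed sign. Counts of members called moved by more than 1.5 times in the following cases. With the 12-library fit, members higher and lower in H3.1K36M cells were 8 and 5 against wild type and 4 and 2 against H3.3K36M cells. Members lower in tumors were 5 with median-of-ratios scaling, 5 with the 12-library fit and 7 with the replicate block. They were 1 to 5 when a library was left out. The 12-library fit called 36% of all genes lower in tumors, and the shares under the other settings are not given. The replicate block changed no other call, apart from Aldoa and Vegfa with HMT siRNA, Kdm3a in H3.3K36M cells (log2 0.11, adjusted p = 0.0472) and Adm, Eno1, Ero1l, Kdm3a, P4ha1, P4ha2 and Plod2 in tumors; the numbers do not pair the samples in the last 2 comparisons. Counts of other pathway genes in H3.1K36M cells also moved with the 12-library fit, to 13 higher and 14 lower against wild type and 7 and 10 against H3.3K36M cells. Values of a few reads are imprecise at this depth. The cause of these shifts was not tested, beyond the wider spread that adding tumors brings.

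The members that changed sign were not called in the reported fits. With the setting "quantile normalisation", members changed sign for H3.3K36M against wild type Aldoc -0.55, Mxi1 0.011 and Slc16a3 -0.42, for HMT siRNA Hk1 -0.054, for the difference of the responses Aldoc -0.67 and Pgk1 -0.066, for H3.1K36M against wild type Ldha -0.19 and P4ha1 -0.0072, for H3.1K36M against H3.3K36M Aldoc 0.41, Ankrd37 0.044, Hif1a -0.041 and Pgam1 -0.043, for tumors Eno1 -0.36 and Pgk1 -0.44. With the setting "6-library fit of the xenograft table", members changed sign for H3.3K36M against wild type Egln1 -0.0076. With the setting "median-of-ratios scaling", members changed sign for tumors Pgk1 -0.065. When a library was left out, ranges crossed 0 for H3.3K36M against wild type Aldoc -0.058 to 0.43, Egln1 -0.0096 to 0.060, Mxi1 -0.10 to 0.040, Pgam1 -0.053 to 0.0063 and Slc16a3 -0.12 to 0.31, for HMT siRNA Aldoc -0.15 to 0.26 and Hk1 -0.0021 to 0.021, for the difference of the responses Aldoc -0.12 to 0.37 and Eno1 -0.067 to 0.021. They also did so for H3.1K36M against wild type Aldoc -0.34 to 0.17, P4ha1 -0.0044 to 0.068 and Pfkfb3 -0.0042 to 0.036, for H3.1K36M against H3.3K36M Aldoc -0.50 to 0.015 and P4ha1 -0.047 to 0.025, for tumors Bnip3l -0.12 to 0.016, P4ha2 -0.40 to 0.039 and Pgk1 -0.064 to 0.19.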
